A study of Mus musculus with 2 samples.

Results

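The genes described here are 33 mouse genes of cholesterol and fatty acid synthesis, chosen by name for their place in these pathways. Earlier results of these data were known when they were chosen. Of these genes, 33 of 33 were found among the 18224 genes of the deposited table. They comprise 6 genes grouped as regulators, 18 enzymes of the sterol route and 9 enzymes of fatty acid synthesis and desaturation. Of the 6, Stard4 encodes a carrier of cholesterol. RNA was sequenced from B16 cells, a mouse melanoma line, given either a control treatment or LY500307, a synthetic compound that activates estrogen receptor beta, and the design compares RNAs between these treatments. Each treatment was represented by 1 library, so the differences have no replicate check and treatments could not be tested against each other. The sources used here give neither the dose nor the duration, and do not say what the control received or whether cultures were pooled.

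The table gave read counts scaled by 1 factor per library, from which 16704950 reads were recovered for the control and 14698853 for the LY500307 library. Levels are given as CPM, reads per 1000000 of the mean of both column totals, not divided by gene length. A single read was worth 0.0603 CPM in the control and 0.0676 with LY500307. Ratios are LY500307 over control, with the exact 95% Clopper-Pearson interval of the reads in parentheses, which covers counting error only. Of 7 melanocyte genes, 7 were well expressed, with Sox10 at 644 and 585 CPM and log2 folds between -0.14 and 0.06 across the list. Of 15 markers of leukocytes, fibroblasts, endothelium, keratinocytes and adipocytes, 4 were analysed here, and these summed to 4.64 CPM in the control against 5.41 with LY500307. The glycolytic gene Gapdh had 299.6 CPM in the control against 102.8 with LY500307 and was not used for scaling. Unlike the members, Gapdh was not checked for near-identical gene copies.

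Cells make cholesterol from acetyl-CoA through mevalonate, farnesyl diphosphate, squalene and lanosterol, and make fatty acids from the same acetyl-CoA through malonyl-CoA. Transcription of both routes is driven by the sterol regulatory element-binding proteins SREBP1 and SREBP2, which are held in the endoplasmic reticulum by SCAP and INSIG proteins when sterols are plentiful and are released to the nucleus when they are scarce. SREBP2 is known mainly for the sterol genes and SREBP1 mainly for the fatty acid genes, so that the transcripts of a route often move together when cellular sterol changes.

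The lipid synthesis genes lay close together in the control and LY500307 libraries. Of the 33 genes, 0 were at least 1.2-fold higher and 2 were at least 1.2-fold lower, Insig1 and Fdps, of which Fdps turned to a log2 fold of 0.039 when its near-identical copies were added. Folds are on the scale log2((LY500307 + 1)/(control + 1)) in CPM. These 2 genes were 6.06% of the members. Among the 12243 measured genes, those averaging 1 CPM or more, 21.4% were past 1.2-fold in either direction, 11.5% higher and 9.91% lower. Among the 9081 genes averaging 10 CPM or more, 6.94% were higher and 6.66% lower by this rule. Among the 9097 genes within the members' range of mean level, from 9.82 to 2303 CPM, 13.7% were past it. No member was past 1.5-fold, where 3.63% of measured genes lay, 2.25% higher and 1.39% lower. No member was past 2-fold, where 0.376% lay, 0.253% higher and 0.123% lower. The median log2 fold of the members was -0.02, beside -0.01 for measured genes, with 16 members above 0 and 17 below. Their standard deviation across genes was 0.15, beside 0.19 for genes within the same range of level. Within that range the sets were not matched on level. The median of the mean levels was 144 CPM for the members and 50.7 CPM for the genes of the range.

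Many of the small differences were nevertheless larger than counting error, with each read taken as independent. The interval of the ratio lay above 1 for 8 members, below 1 for 9 and included 1 for the other 16. Among measured genes it lay above 1 for 17.2% and below 1 for 19.2%, 36.4% together. Among genes within the members' range of level it was off 1 for 41.2%. The median level of those genes was 50.7 CPM, against 144 CPM for the members, and intervals narrow as reads rise. The shares are therefore not matched on reads, and their difference was not tested. With reads divided by each library's own total, which raises log2 folds by 0.02 at the median, the counts became 10 above and 8 below. Scap and Insig2 moved to the upper side and Srebf2 left the lower side. Summed over the 33 genes, the level was 8603 CPM in the control against 8189 with LY500307, a ratio of 0.952 (0.945 to 0.959). On the same scale the ratio of sums was 0.986 over measured genes and 0.956 over the 7 melanocyte genes.

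**Figure D1:**
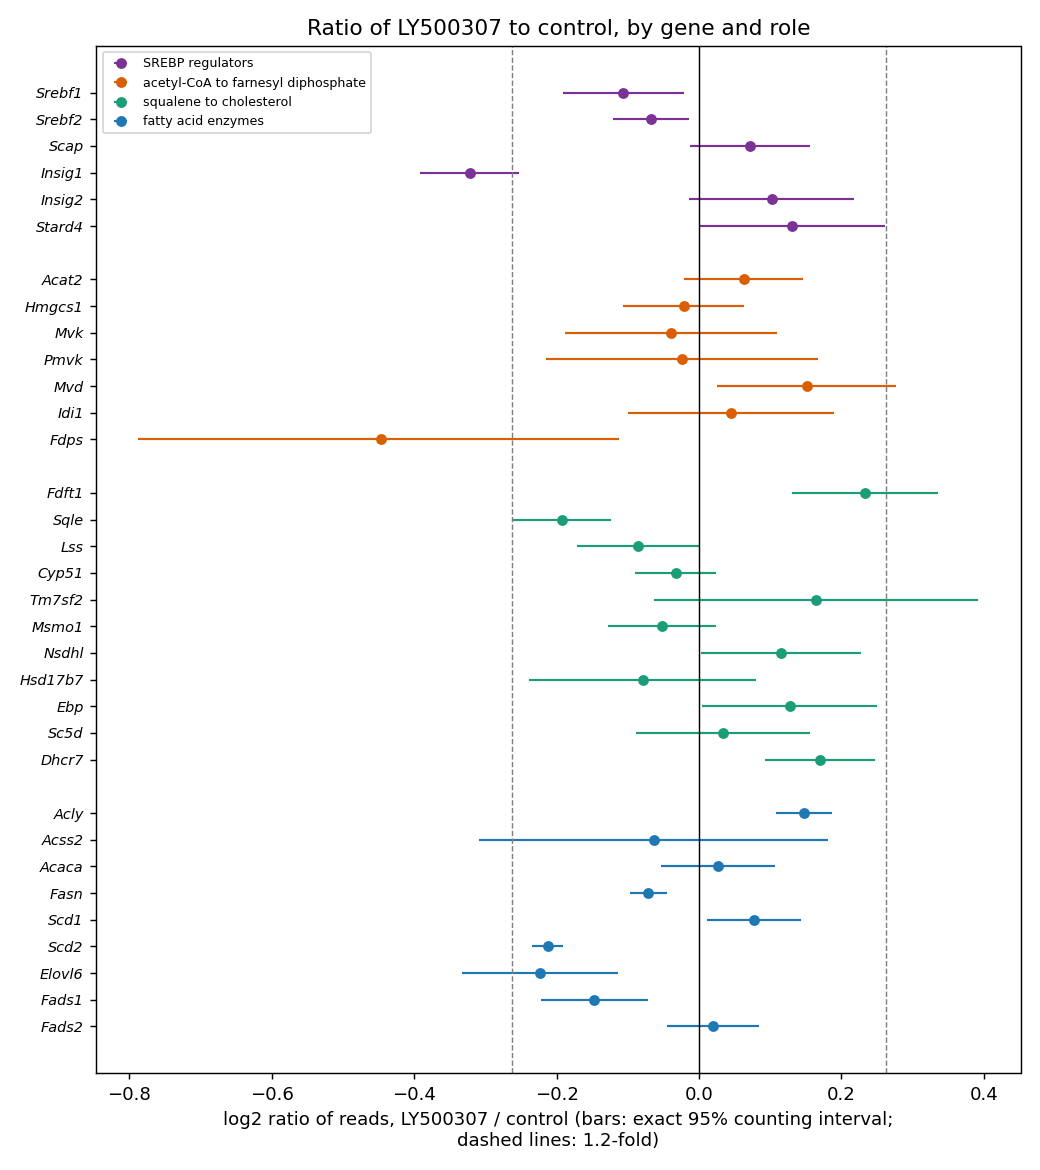
Log2 ratio of reads, LY500307 over control, for each of the 33 genes in the order of the pathway, coloured by role, with exact 95% counting intervals as bars and dashed lines at 1.2-fold. Only the points of Insig1 and Fdps lie outside the dashed lines, and that of Fdps comes to a log2 fold of 0.039 when its near-identical copies are added.

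**Figure D2:**
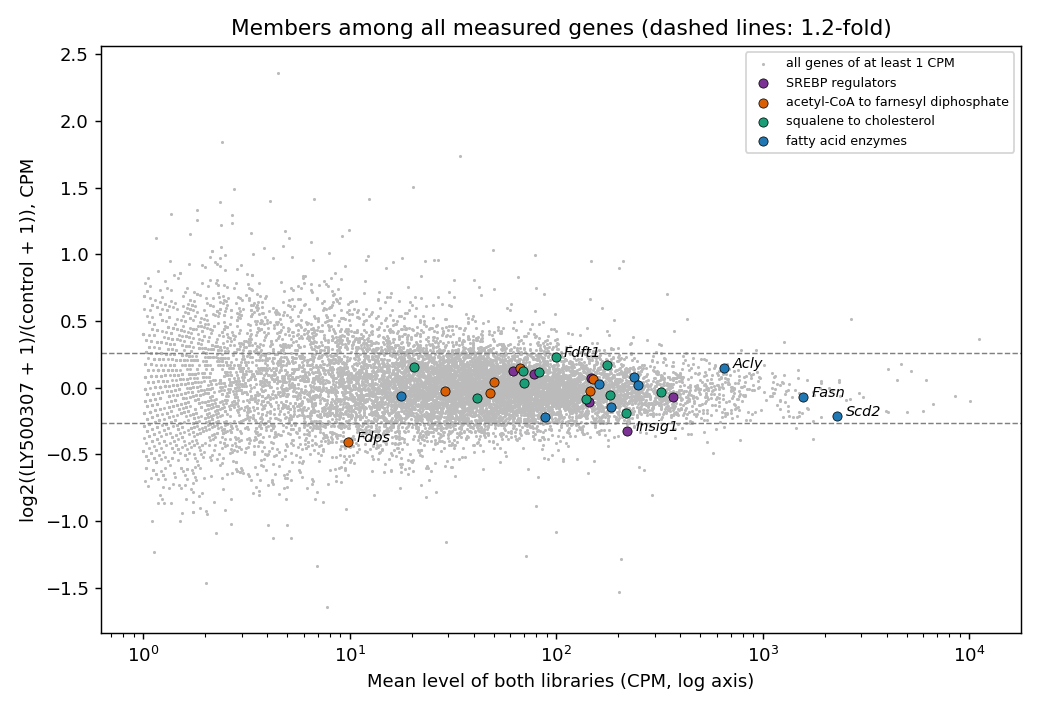
Log2 fold on the CPM + 1 scale against the mean level of both libraries, on a log axis, for 12243 genes in grey and the 33 members in colour. The members span mean levels from 9.82 to 2303 CPM and lie, apart from Insig1 and Fdps, inside the dashed lines at 1.2-fold; Fdps comes to 0.039 when its near-identical copies are added.

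Among the regulators, Insig1 differed most and its paralog Insig2 did not move with it. Insig1 encodes an endoplasmic reticulum protein that binds SCAP and retains SREBP, and its own transcription is a known target of SREBP. It was at 246 CPM in the control against 197 with LY500307, from 4080 and 2911 reads, and so 1.25-fold lower (1.19 to 1.31). Insig2, which encodes the second retention protein and is known to depend less on SREBP, was at 75.2 and 80.7 CPM, a ratio of 1.07 (0.991 to 1.16). The ratio of Insig1 to Insig2 within a library was 3.27 for the control and 2.44 for LY500307. These stand in a ratio of 0.745, with an exact conditional interval of 0.679 to 0.818. Insig1 has 1 listed near-identical copy, Gm37784, with 1 and 4 reads, and adding it left the log2 fold of Insig1 at -0.32.

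The genes of the SREBP proteins themselves differed little. Srebf2, the gene of SREBP2, was at 376 and 359 CPM, a ratio of 0.955 (0.920 to 0.990). Srebf1, the gene of SREBP1, was at 149 and 139 CPM, with a ratio of 0.929 (0.876 to 0.985). The ratio of Srebf2 to Srebf1 was 2.52 for the control and 2.59 for LY500307, and the interval of the change, 0.959 to 1.10, included 1. Scap, the gene of the escort protein that carries SREBP to the Golgi, was at 145 and 152 CPM, a ratio of 1.05 (0.992 to 1.11). Stard4, which encodes a carrier of cholesterol between membranes, was at 58.8 and 64.3 CPM, a ratio of 1.09 with a lower bound of 1.0001. For the 6 genes grouped as regulators, Stard4 included, the median log2 fold was 0.002.

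Sequence upstream of 3 of these genes shows what their promoters share. Upstream sequences of RefSeq genes on GRCm38.p6 could be matched for 26 of the 33 members. The 250 bases before the annotated start were searched on either strand for CCAAT, the letters bound by NF-Y, a factor that works with SREBP, for GGGCGG, the letters bound by SP1, and for TCACNCCAC, a form of the sterol regulatory element. CCAAT was found in 20 of the 26 members (76.9%), beside 37.5% of 27025 genes, and GGGCGG in 22 (84.6%), beside 35.4%. The 27025 genes were not limited to those measured here, so the comparison is not matched on expression. Whether other expressed genes hold these letters as often was not tested. Of the 9 matched genes from squalene to cholesterol, 9 held CCAAT, against 2 of 6 fatty acid genes. TCACNCCAC was found in 1 member, Hmgcs1, and in 1.22% of genes. A match of letters is a description and not a binding site. The sequences printed are those of Insig1, the regulator that differed most, of Hmgcs1, the member with TCACNCCAC, and of Cyp51, a sterol gene with a ratio near 1. Capitals mark CCAAT or its reverse complement ATTGG, and TCACNCCAC, and no marked match overlaps another. Insig1 lies at chr5:28071162-28071411 on the plus strand, Hmgcs1 at chr13:119690101-119690350 on the plus strand and Cyp51 at chr5:4104698-4104947 on the minus strand.
Insig1: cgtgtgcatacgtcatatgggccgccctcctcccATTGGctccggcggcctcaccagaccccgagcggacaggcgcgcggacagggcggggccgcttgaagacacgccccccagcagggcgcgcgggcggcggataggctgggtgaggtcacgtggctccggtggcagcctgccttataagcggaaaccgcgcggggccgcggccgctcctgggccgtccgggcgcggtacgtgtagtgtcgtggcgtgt
Hmgcs1: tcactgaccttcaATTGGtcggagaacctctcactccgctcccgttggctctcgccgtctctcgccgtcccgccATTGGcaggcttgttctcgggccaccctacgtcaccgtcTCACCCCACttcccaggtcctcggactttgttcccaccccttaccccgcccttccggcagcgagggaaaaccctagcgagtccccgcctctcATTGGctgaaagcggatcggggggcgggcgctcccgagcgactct
Cyp51: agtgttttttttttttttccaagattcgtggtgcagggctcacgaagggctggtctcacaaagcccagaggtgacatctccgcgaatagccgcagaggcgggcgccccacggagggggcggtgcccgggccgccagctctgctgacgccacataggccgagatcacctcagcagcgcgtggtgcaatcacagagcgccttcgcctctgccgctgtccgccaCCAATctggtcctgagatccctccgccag
The 3 sequences hold 1, 3 and 1 matches of CCAAT. The genes were picked with their values known, so the sequences bear on no relation between motif and fold.

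The enzymes from acetyl-CoA to farnesyl diphosphate showed almost equal levels apart from Fdps. Of these 7 genes, 0 were past 1.2-fold on the higher side and 1 on the lower, and their median log2 fold was -0.02. Acat2, a cytosolic thiolase that joins acetyl-CoA units, was at 147 and 154 CPM, a ratio of 1.04 (0.986 to 1.11). Hmgcs1, the cytosolic HMG-CoA synthase, was at 147 and 144 CPM, a ratio of 0.985 (0.929 to 1.04). The level of Hmgcs1 thus did not differ beyond counting error. Mvk, the mevalonate kinase, had a ratio of 0.973 (0.878 to 1.08) at 48.5 and 47.2 CPM. Pmvk, the next kinase, had one of 0.984 (0.861 to 1.12) at 29.1 and 28.6 CPM. The intervals of both kinases included 1. Mvd, the decarboxylase that makes isopentenyl diphosphate, was at 63.2 and 70.1 CPM, a ratio of 1.11 (1.02 to 1.21). Idi1, the isomerase of that product, was at 49.2 and 50.8 CPM, a ratio of 1.03 (0.933 to 1.14). Mvd was thus the one gene of this stretch with an interval above 1.

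Fdps, which makes farnesyl diphosphate, the last intermediate shared by sterols and other isoprenoids, had the lowest log2 fold of the members, -0.41, but its count is uncertain. It was at 11.3 CPM in the control against 8.31 with LY500307, from 188 and 123 reads, 1.36-fold lower (1.08 to 1.73). In GENCODE M21, 81.3% of its longest coding transcript lies in exons that Gm43738, a gene on the same strand, also holds, and 6 genes are near-identical to it. Of these 6, Gm3571 and Gm5873 were analysed here. Gm3571 was at 20.9 and 24.1 CPM, a ratio of 1.16 (0.995 to 1.34), and Gm5873 at 3.56 and 4.32 CPM, a ratio of 1.22 (0.840 to 1.76). More reads were thus listed under the copies than under Fdps itself. Fdps summed with both was at 35.7 and 36.8 CPM, a ratio of 1.03 (0.914 to 1.16) and a log2 fold of 0.039, so that its direction turned. How the counting divided reads among these genes was not tested. Without Fdps, 1 member, Insig1, was past 1.2-fold. Acat2, Idi1, Fdft1, Acaca and Elovl6 also have near-identical copies in the annotation, so their values are uncertain too, to differing degrees. The listed copy of Fdft1 had 2 and 1 reads and that of Acaca 368 and 415, while the copy of Elovl6 is not listed. Only 6 members have listed copies, so the values of the others could not change when copies were added. Of these 6, only Fdps then had a log2 fold outside its counting interval.

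**Figure D3:**
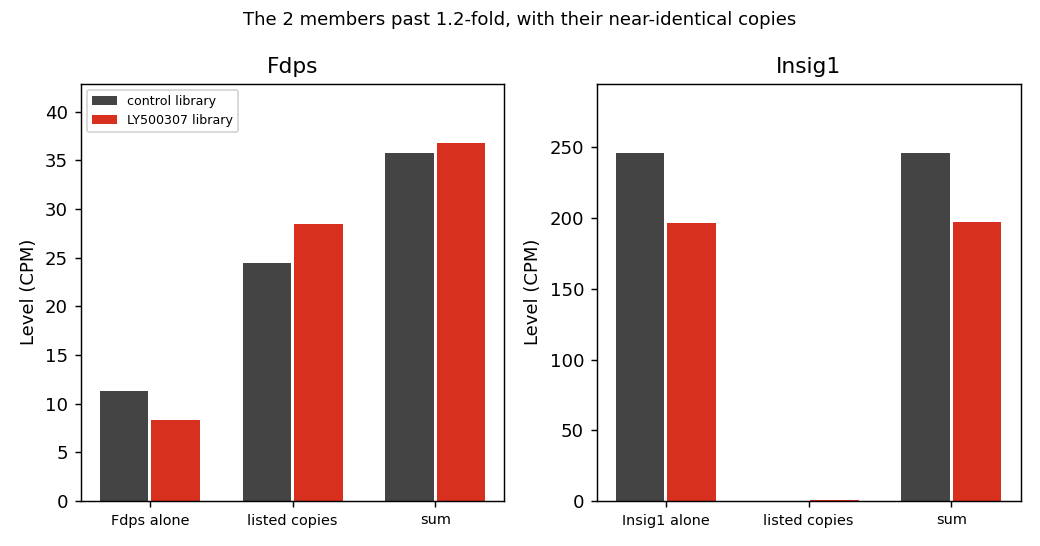
Level in CPM of Fdps (left) and Insig1 (right) alone, of their listed near-identical copies, and of the sum, with 1 bar per library. Fdps alone is lower in the LY500307 library, at 8.31 against 11.3 CPM, while its sum is 36.8 against 35.7, and the copy of Insig1 adds almost nothing.

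The 11 enzymes from squalene to cholesterol summed to 1422 CPM in both libraries, with an interval of 0.982 to 1.02 for the ratio, while single steps differed in opposite directions. None was past 1.2-fold, and the median log2 fold was 0.03. Fdft1, squalene synthase, the first enzyme committed to sterols, was at 91.3 and 107 CPM, a ratio of 1.18 (1.10 to 1.26). Sqle, squalene epoxidase, which catalyses the next and often limiting step, was at 233 and 204 CPM, a ratio of 0.875 (0.834 to 0.918). The ratio of Sqle to Fdft1 was 2.55 for the control and 1.90 for LY500307, standing at 0.745 (0.683 to 0.811). These consecutive enzymes had the highest and the lowest ratio of the stretch, so the interval of their pair adds no support beyond their single ratios. Of the longest coding transcript of Fdft1, 20.9% is overlapped on the opposite strand by exons of Ctsb, a lysosomal protease gene, which was at 385 and 461 CPM, a ratio of 1.196 (1.16 to 1.24). The sources used here do not say whether counting used strand, and the part of Ctsb in the reads of Fdft1 was not tested.

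After squalene epoxide the differences were smaller. Lss, which closes the ring to lanosterol, was at 144 and 136 CPM, a ratio of 0.943 (0.888 to 1.0005). Cyp51, the lanosterol demethylase, was at 326 and 319 CPM, a ratio of 0.978 (0.940 to 1.02). Msmo1, the sterol methyl oxidase, was at 185 and 179 CPM, a ratio of 0.965 (0.916 to 1.02). These abundant genes of the ring and demethylation steps were each slightly lower, with intervals that included 1. Tm7sf2, a sterol reductase, had a ratio of 1.12 (0.957 to 1.31) at 19.3 and 21.7 CPM. Hsd17b7, a sterol ketoreductase, had one of 0.947 (0.848 to 1.06) at 42.7 and 40.4 CPM, and Sc5d, the sterol desaturase, one of 1.02 (0.941 to 1.11) at 69.4 and 71.1 CPM. The intervals of these 3 genes included 1 too. Nsdhl, a sterol dehydrogenase, was at 79.4 and 86.0 CPM, a ratio of 1.08 with a lower bound of 1.003. Ebp, the sterol isomerase, was at 65.7 and 71.8 CPM, a ratio of 1.09 with the same lower bound. Dhcr7, the reductase that makes cholesterol from its last precursor, was at 165 and 186 CPM, a ratio of 1.13 (1.07 to 1.19). Of the genes after lanosterol, Dhcr7 lay farthest above 1 in terms of its interval.

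The 9 fatty acid enzymes held most of the reads of the 33 genes, with 5635 CPM in the control against 5272 with LY500307, a ratio of 0.936 (0.927 to 0.944). None was past 1.2-fold and the median log2 fold was -0.06. The lower sum came mainly from Scd2, a stearoyl-CoA desaturase that makes monounsaturated fatty acids, which was at 2473 and 2134 CPM, 1.16-fold lower (1.14 to 1.18). Scd1, its paralog, was at 231 and 244 CPM, a ratio of 1.06 (1.01 to 1.10). The ratio of Scd2 to Scd1 was therefore 10.7 for the control and 8.74 for LY500307, and it stood at 0.818 (0.780 to 0.858). Scd2 and Scd1 were not near-identical copies by the criterion used for Fdps.

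Enzymes that supply and build palmitate did not share a direction. Acly, which makes cytosolic acetyl-CoA from citrate, was at 615 and 681 CPM, a ratio of 1.11 (1.08 to 1.14). Fasn, fatty acid synthase, was at 1602 and 1525 CPM, a ratio of 0.952 (0.935 to 0.969). The ratio of Fasn to Acly went from 2.61 to 2.24, standing at 0.859 (0.832 to 0.888). Acaca, the carboxylase that makes malonyl-CoA and commits acetyl-CoA to fatty acids, was at 160 and 163 CPM, a ratio of 1.02 (0.964 to 1.08). Acss2, which makes acetyl-CoA from acetate, was at 18.1 and 17.4 CPM, a ratio of 0.957 (0.807 to 1.13). Acaca and Acss2 thus did not differ beyond counting error, and Acaca has 1 listed near-identical copy that took 22.2 and 28.0 CPM. Elovl6, the elongase of palmitate, was at 94.9 and 81.4 CPM, 1.17-fold lower (1.08 to 1.26). Fads1, the delta-5 desaturase of polyunsaturated fatty acids, was at 194 and 175 CPM, 1.11-fold lower (1.05 to 1.17). Fads2, the delta-6 desaturase, was at 246 and 250 CPM, a ratio of 1.01 (0.970 to 1.06). The ratio of Fads1 to Fads2 went from 0.788 to 0.702, and the interval of that change, 0.832 to 0.954, excluded 1.

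Levels between genes were compared per kilobase of the longest coding transcript in GENCODE M21. Scd2 had the highest level, 453 CPM per kilobase in the control against 391 with LY500307. Fasn followed with 159 and 152 and Acly with 139 and 154, and these exchanged places between the libraries. Acss2 had the lowest level, 6.19 and 5.92, and Fdps the next, 8.20 and 6.01. Among sterol genes in the control, Msmo1 was at 90.7, Sqle at 84.6 and Cyp51 at 83.1 CPM per kilobase. Insig1 had rank 4 of the 33 in the control, at 91.2, and rank 8 with LY500307, at 72.9. Fads2, at 78.2 and 79.3, went from rank 8 to rank 6, and Sqle, at 84.6 and 74.0, from rank 6 to rank 7. No gene other than Insig1 moved by more than 2 ranks.

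**Figure D4:**
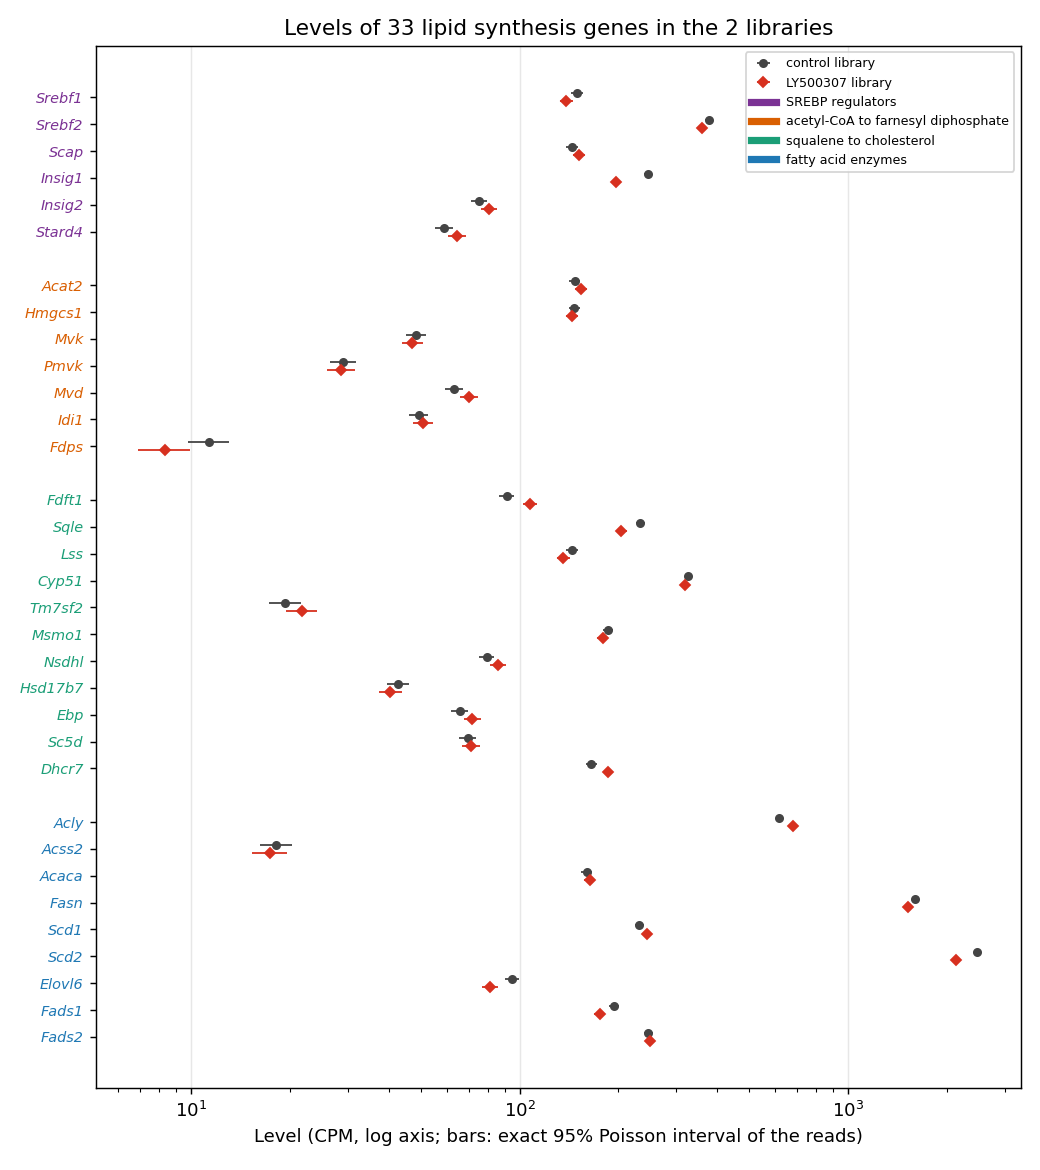
Level of each of the 33 genes in CPM, on a log axis and not divided by length, in the control library (grey circles) and the LY500307 library (red diamonds), with exact 95% Poisson intervals of the reads as bars. Levels run from Fdps at 11.3 and 8.31 CPM, or 35.7 and 36.8 with its listed near-identical copies, to Scd2 at 2473 and 2134 CPM.

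Other genes of sterol metabolism were taken from lists of names. Of 11 genes that cleave SREBP or degrade sterol-sensing proteins, 0 were past 1.2-fold, beside 21.4% of measured genes, with a median log2 fold of -0.04. In that list Erlin1 and Erlin2, which encode partners in a membrane complex of endoplasmic reticulum degradation, were at 0.22 and -0.12. Of 13 other sterol and isoprenoid genes, 4 were at least 1.2-fold lower and 0 higher, with a median of -0.08. Over all measured genes, 9.91% were lower by this rule, and 6.66% of those averaging 10 CPM or more; the list itself was not tested. Pdss2 and Pdss1, subunits of the enzyme that makes the side chain of coenzyme Q, had log2 folds of -0.46 and -0.35. Pdss2 was at 24.9 and 17.8 CPM, 1.40-fold lower (1.197 to 1.64), and Pdss1 at 16.8 and 13.0 CPM, 1.29-fold lower (1.07 to 1.56). Ggps1, which makes geranylgeranyl diphosphate from farnesyl diphosphate, was at 31.8 and 25.0 CPM, 1.27-fold lower (1.11 to 1.46). The other lower gene was Tmem97, a sterol-regulated membrane protein gene, at -0.29. Other genes that use isoprenoid products lay on both sides of 0. Dhdds and Nus1, subunits of the enzyme for dolichol synthesis, were at 0.14 and 0.07. The farnesyltransferase subunit genes Fnta and Fntb were at 0.06 and 0.03, and Coq2, of coenzyme Q synthesis, was at -0.18. Of the coding transcript of Pdss1, 24.4% is overlapped on the opposite strand by other genes, and it has a listed near-identical copy. Tmem97 and Coq2 each have a listed near-identical copy as well, and Ggps1 has one that is not listed. How reads were divided between these genes and their copies was not tested.

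Genes that move cholesterol lay mostly within 1.2-fold, as did most measured genes, and nothing particular to these lists was tested. Of 14 genes of uptake, transport and esterification, 0 were past 1.2-fold, beside 21.4% of measured genes, and the median was 0.06. Among genes averaging 10 CPM or more, 13.6% were past it. Scarb1, a receptor for high-density lipoprotein, had a log2 fold of 0.22, and the sterol carriers Gramd1b and Gramd1a were at 0.20 and -0.17. Of 7 measured genes in the list of LXR targets and cholesterol efflux, 1 was lower and 0 higher, beside 9.91% and 11.5% of measured genes, with a median of 0.14. Pltp, the phospholipid transfer protein, was at 17.2 and 12.6 CPM (log2 fold -0.42), with 22.2% of its coding transcript overlapped on the opposite strand by Ctsa, while the transporter gene Abca7 was at 0.26 and the acyltransferase gene Lpcat3 at 0.18. Of 19 measured genes of fatty acid supply, elongation and activation, 2 were higher and 1 lower, together 15.8% beside 21.4% of measured genes, with a median of 0.01. Acacb, the mitochondrial acetyl-CoA carboxylase, was at 13.3 and 21.4 CPM, a ratio of 1.61 (1.35 to 1.92), whereas its cytosolic relative Acaca had a ratio of 1.02. Slc25a1, the mitochondrial citrate carrier that feeds Acly, was at 82.4 and 102 CPM, a ratio of 1.24 (1.15 to 1.33). Oxsm, of mitochondrial fatty acid synthesis, had a log2 fold of -0.40 on 174 and 114 reads.

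**Figure D5:**
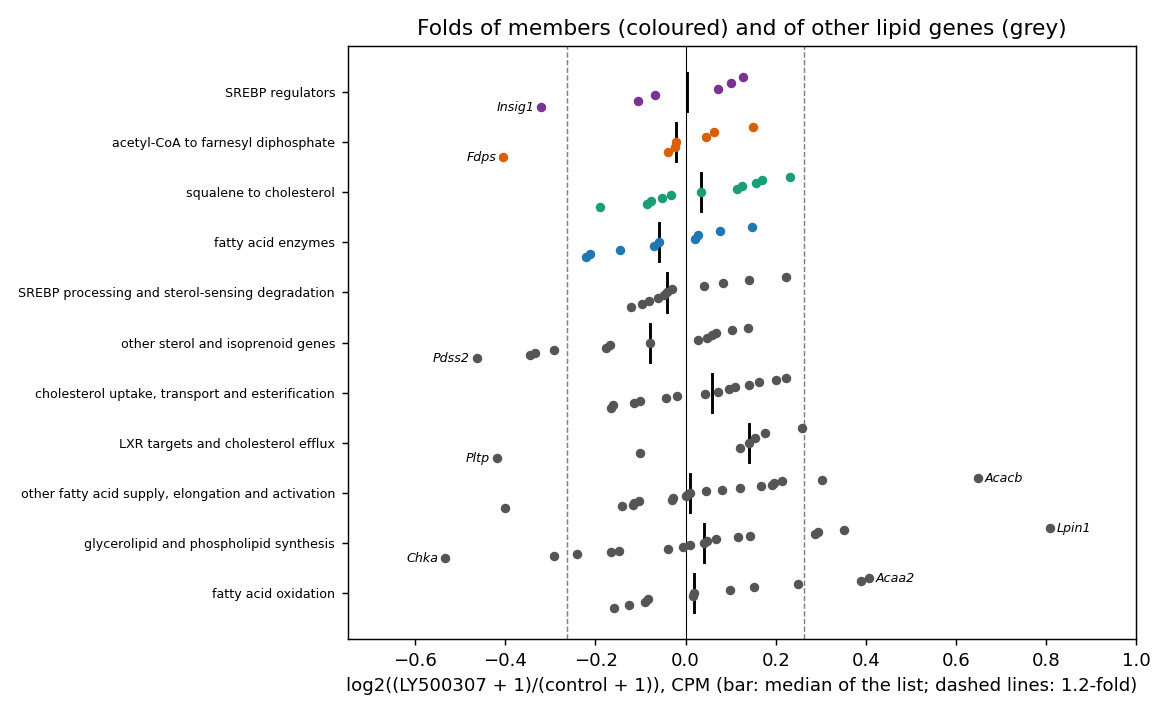
Log2 folds on the CPM + 1 scale of the members (coloured, upper 4 lists) and of 7 lists of other lipid genes (grey), 1 point per measured gene, with black bars at the list medians and dashed lines at 1.2-fold. The list medians lie between -0.08 and 0.14, Lpin1 lies at 0.81, and Fdps, at -0.41 alone, comes to 0.039 with its near-identical copies.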

How the data were processed

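Per the labels' protocols, stranded libraries were made from Trizol-extracted RNA without ribosomal RNA. CASAVA 1.8 and Bowtie2 with build mm9 are named in the submitters' processing notes. For the counting tool, annotation, use of strand and scaling, nothing is given in the sources used here. Deposited values form a signal that rises in whole steps of 1 read. Divided by that step, 99.9% of values in each library lay within 1% of a whole read. With 1 library per group a count test between treatments was not possible, and exact intervals of the reads were used instead.

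CPM are deposited values per 1000000 of the mean of both totals. Folds are log2((LY500307 + 1)/(control + 1)) for genes averaging 1 CPM or more. Symbols came from a table of gene names supplied with the reference. GENCODE M21 gave transcript lengths, overlaps and copies. A copy is a gene whose longest transcript matched at 95% identity over 100 bases or more and over 50% of the shorter transcript (blastn 2.17.0). M21 uses another build than mm9. The calculations were tested on simulated data. Members, lists and the 1.2-fold rule were chosen with earlier results of these data known. The pairs of members set in ratio to each other were not planned, so their intervals are descriptions only. All members are named, as are up to 3 genes per other lipid list with the largest absolute fold, except 1 that is not reported here. Gapdh, Ctsb, Sox10, Tmem97, Dhdds, Nus1, Fnta, Fntb, Coq2, the copies of members, the motifs and the printed promoters were chosen after values were seen. Calculations ran in Python 3.11.15 with pandas 2.3.3, scipy 1.17.1, matplotlib 3.10.9 and numpy 2.4.6.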

Additional observations from a re-analysis of the deposited data

How the results depend on the processing

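The number of members at least 1.2-fold lower was 2. It became 1 with a minimum of 10 CPM, and 1 when members were summed with listed near-identical copies. It was 0 when the 7 members with any near-identical copy, listed or not, were left out, Insig1 and Fdps among them. It was 0 with a 1.5-fold or a 2-fold rule, and 9 by the counting interval. Without Fdps, an alternative chosen after seeing the data, it was 1. The number at least 1.2-fold higher was 0 under each of these settings except the counting interval, which gave 8. Summing with copies turned the log2 fold of Fdps from -0.41 to 0.039. Under other pseudocounts, expression minimums and scalings, the log2 folds of the members stayed within their main counting intervals. The median over the 33 genes lay between -0.02 and 0.02 across the alternatives, and the log2 ratio of summed CPM was -0.07. Fdps and Acss2, on 123 to 301 reads, were the least precise members. Without molecular identifiers, PCR duplicates count as separate reads, so the intervals may be too narrow even for counting error. No paired analysis was possible because each group had 1 library.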

Other observations

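Genes of membrane lipid synthesis included values on both sides of 1.2-fold. Of 17 measured genes of glycerolipid and phospholipid synthesis, 4 were at least 1.2-fold higher and 2 lower, with a median log2 fold of 0.04. Lpin1, a phosphatidate phosphatase that makes diacylglycerol and also acts with nuclear factors, was at 23.0 and 41.1 CPM, a ratio of 1.78 (1.57 to 2.03), from 382 and 608 reads. Chka, choline kinase alpha, the first enzyme of phosphatidylcholine synthesis from choline, was at 40.1 and 27.4 CPM, 1.46-fold lower (1.29 to 1.66). Cept1, a choline and ethanolamine phosphotransferase that acts late in the same route, was at 13.6 and 17.6 CPM, a ratio of 1.30 (1.08 to 1.56), with 27.6% of its coding transcript overlapped on the opposite strand by other genes. The first and a late enzyme of that route thus lay on opposite sides of 1.

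Genes of fatty acid oxidation had 2 of 11 measured genes at least 1.2-fold higher and 0 lower, with a median log2 fold of 0.02. Acaa2, a thiolase of mitochondrial beta-oxidation, was at 62.7 and 83.5 CPM, a ratio of 1.33 (1.22 to 1.45). Acadvl, the very long chain acyl-CoA dehydrogenase, was at 60.6 and 79.6 CPM, a ratio of 1.31 (1.21 to 1.43). Of its coding transcript, 45.0% is overlapped on the opposite strand by Dvl2, whose part in the reads was not tested. Hadhb, a subunit of the trifunctional protein, was at 149 and 178 CPM, a ratio of 1.19 (1.13 to 1.26), and has a listed near-identical copy. Over measured genes, 11.5% were at least 1.2-fold higher and 9.91% lower, and nothing particular to either list was tested.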
